A study of Homo sapiens with 9 samples.

Results

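The genes described here are 10 members of the autophagy machinery and its transcriptional control in MDA-MB-231 cells treated with the copper chelator TEPA: TFEB, TFE3, SQSTM1, MAP1LC3B, GABARAPL1, WIPI1, BECN1, ATG5, ATG7 and ATG16L1. They were taken by name from the raw count table, which lists 59453 gene names, and all 10 were found and passed the filter on low counts. MDA-MB-231 is an established human triple-negative breast cancer line, and TEPA is a polyamine that binds copper. RNA-Seq covered 3 groups of 3 replicates: untreated cells, cells treated with TEPA for 8 h and cells treated with TEPA for 24 h. The same 1 untreated group served both times, and its treatment label gives no time of harvest. Changes with TEPA and changes with time in culture therefore cannot be told apart. The labels give a TEPA concentration of 8 mM, whereas the RNA sequencing methods of the study give a lower one. No source used here says whether the replicates were separate cultures, so p-values measure the spread between these libraries, which may be technical, and all of it comes from 1 cell line.

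Autophagy encloses part of the cytoplasm in a membrane that closes around it and fuses with the lysosome. WIPI1 reads the lipid made by the BECN1-containing kinase complex on the growing membrane, and ATG7, ATG5 and ATG16L1 belong to the enzymes that attach ATG8 proteins such as MAP1LC3B and GABARAPL1 to it. SQSTM1, also called p62, is a receptor that links ubiquitinated cargo to the attached ATG8 proteins and is itself degraded with the cargo. TFEB and TFE3 are transcription factors of the MiT/TFE family that drive lysosomal and autophagy genes through the CLEAR element, and they are controlled largely by phosphorylation and entry into the nucleus, which RNA counts do not measure. Likewise, transcript levels do not measure autophagic flux.

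The promoters are shown for 4 members: SQSTM1 and GABARAPL1, which changed the most after 24 h, and MAP1LC3B and ATG5, which hold a match to a searched motif. Each run is the 250 bases before the start of the MANE Select transcript in GENCODE v44 on hg38, 5′ to 3′ on the strand of the gene. Capitals mark the ARE core in MAP1LC3B and the E-box in ATG5, and the other windows hold no capitals.
SQSTM1 (chr5:179820655-179820904, + strand): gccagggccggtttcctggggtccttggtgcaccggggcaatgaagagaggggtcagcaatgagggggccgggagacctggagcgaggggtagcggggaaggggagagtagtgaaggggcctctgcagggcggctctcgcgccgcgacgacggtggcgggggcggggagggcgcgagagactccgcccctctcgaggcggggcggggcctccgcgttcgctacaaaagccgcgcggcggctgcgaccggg
GABARAPL1 (chr12:10212627-10212876, + strand): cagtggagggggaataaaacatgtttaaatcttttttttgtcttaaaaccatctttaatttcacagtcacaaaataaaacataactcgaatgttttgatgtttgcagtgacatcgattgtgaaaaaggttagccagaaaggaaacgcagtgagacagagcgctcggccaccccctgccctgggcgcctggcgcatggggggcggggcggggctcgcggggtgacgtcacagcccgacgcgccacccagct
MAP1LC3B (chr16:87392086-87392335, + strand): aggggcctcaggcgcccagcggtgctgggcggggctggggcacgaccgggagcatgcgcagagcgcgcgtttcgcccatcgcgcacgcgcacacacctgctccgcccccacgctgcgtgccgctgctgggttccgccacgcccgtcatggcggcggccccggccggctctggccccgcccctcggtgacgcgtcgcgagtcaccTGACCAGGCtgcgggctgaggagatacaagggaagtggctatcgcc
ATG5 (chr6:106325761-106326010, - strand): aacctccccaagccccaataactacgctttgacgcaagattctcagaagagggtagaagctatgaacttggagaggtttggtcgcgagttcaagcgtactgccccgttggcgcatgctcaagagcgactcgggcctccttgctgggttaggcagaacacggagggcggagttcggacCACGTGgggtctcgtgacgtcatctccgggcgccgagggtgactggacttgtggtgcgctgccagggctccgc

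Motifs were searched on both strands from 250 bases before to 50 bases after the start of each gene. The CLEAR core (TCACGTGA, which contains the E-box CACGTG) was found in none of the 10 member promoters, in 9 of the 32 promoters of a list of CLEAR lysosomal targets (28.1%), and in 1.46% of all 19061 MANE Select promoters. The E-box, whatever letters flank it, was found in 1 member, ATG5, from base -73, against 8.8% of all promoters and 59.4% of the CLEAR list. That list is named for the CLEAR element, so its shares are no independent yardstick. Finding none among 10 promoters is uninformative for a motif as rare as the CLEAR core. The ARE core (TGACNNNGC), bound by NRF2, was found in 1 member, MAP1LC3B, from base -46, against 14.1% of all promoters. The ATF4 site core (TGATGCAA) was found in no member and in 0.666% of all promoters. A match is a description of the letters, not a binding site, and these windows do not reach distal elements or other start sites of the same gene.

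In GENCODE v44 on hg38 the transcription factor genes lie at chr6:41683978-41736259 (TFEB, - strand) and chrX:49028726-49043410 (TFE3, - strand), and SQSTM1 lies at chr5:179806398-179838078 (+ strand). The ATG8 genes lie at chr16:87383953-87404779 (MAP1LC3B, + strand) and chr12:10212458-10223128 (GABARAPL1, + strand). WIPI1 and BECN1 are both on chromosome 17, at chr17:68420948-68457513 and chr17:42810134-42833350 (- strand). The conjugation genes lie at chr6:106045423-106325791 (ATG5, - strand), chr3:11272309-11557665 (ATG7, + strand) and chr2:233210051-233295674 (ATG16L1, + strand). Counts were made over all exons of a gene, untranslated ones included. Several members share exonic bases with a gene on the other strand, such as WIPI1 with ARSG (24.4% of its exonic bases) and SQSTM1 with MRNIP (21%), and none does so on its own strand. Reads were counted with strand, so those neighbours were kept apart.

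Untreated cells expressed the members over a wide range. Per kilobase of exon, from CPM (counts of a gene divided by the library total, as scaled by edgeR's TMM factors, and brought to a common depth), SQSTM1 stood at 153 ± 7.24 CPM per kb (SD, n = 3). Next came TFE3, at 24.8 ± 0.194 CPM per kb, and MAP1LC3B, at 21.7 ± 0.52 CPM per kb. WIPI1 and BECN1, at 13.1 ± 1.57 and 12.8 ± 0.256 CPM per kb, overlapped in their libraries, and so did ATG7 and GABARAPL1, at 3.47 ± 0.0631 and 3.44 ± 0.585 CPM per kb. ATG5, at 8.28 ± 0.0854 CPM per kb, lay above ATG16L1, at 7.36 ± 0.224 CPM per kb, without overlap. TFEB was the lowest member, at 1.2 ± 0.17 CPM per kb, so that TFE3 exceeded TFEB 21-fold per kb (SD 2.79, n = 3). Lengths are those of all annotated exons of a gene merged, which is at least the length of any single transcript, so the order holds for this measure of length only. At 24 h MAP1LC3B had moved above TFE3 without overlap, and GABARAPL1, at 7.15 ± 0.127 CPM per kb, had moved above ATG7, at 3.81 ± 0.12 CPM per kb.

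**Figure D1:**
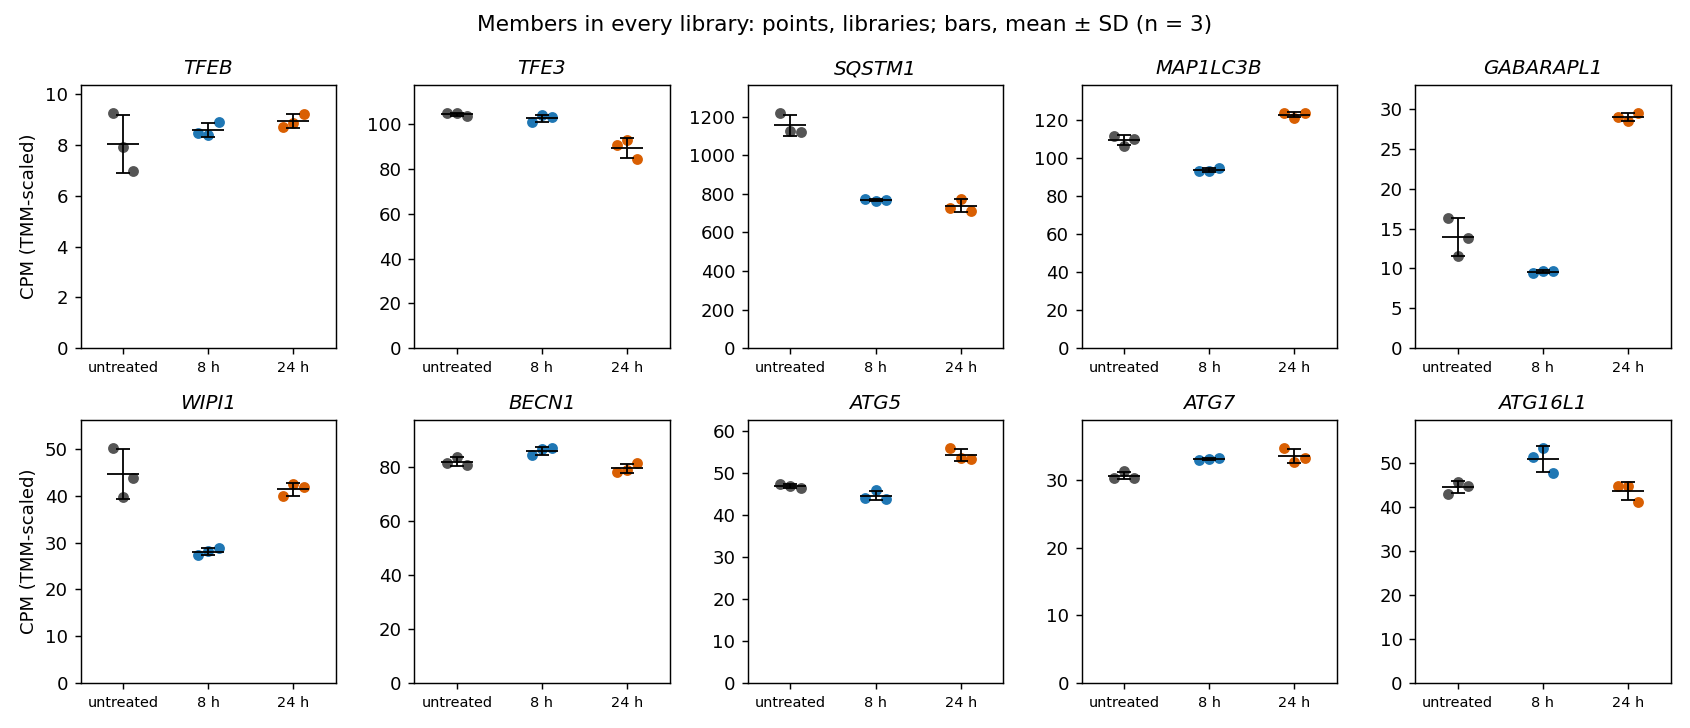
TMM-scaled CPM of the 10 members in each of the 9 libraries, with the mean and SD of each group (n = 3), on vertical axes that start at 0. SQSTM1 fell from a mean of 1156 CPM to 766 and 738 CPM, while GABARAPL1 went from 13.9 CPM to 9.58 CPM after 8 h and 29.0 CPM after 24 h.

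A gene was called where edgeR's quasi-likelihood test gave a Benjamini-Hochberg adjusted p below 0.05. Of the 10 members, 1 was called higher (ATG16L1) and 4 lower (SQSTM1, MAP1LC3B, GABARAPL1 and WIPI1) after 8 h of TEPA than in untreated cells, beside 49.6% of all 16556 genes tested, with 25.2% higher and 24.5% lower. After 24 h, 4 members were higher (GABARAPL1, MAP1LC3B, ATG5 and ATG7) and 2 lower (SQSTM1 and TFE3), beside 52.5% of all genes, with 25.7% higher and 26.8% lower. Between 8 h and 24 h, 4 members rose and 3 fell, beside 54.8% of all genes, with 26% higher and 28.8% lower. The number of members called was thus near the background in each comparison. Lower calls outnumbered higher ones among the members after 8 h, which was not tested for the members as a set.

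Larger changes were fewer. A call with a log2 fold change beyond 0.5 was met by no member upwards and by 3 downwards after 8 h (SQSTM1, GABARAPL1 and WIPI1), beside 17.8% of all genes, with 10.1% higher and 7.67% lower. After 24 h it was met by 1 upwards (GABARAPL1) and 1 downwards (SQSTM1), beside 18.7% of all genes, with 10.2% higher and 8.46% lower. Between the times it was met by 2 upwards (GABARAPL1 and WIPI1) and none downwards, beside 21.2% of all genes, with 10.4% higher and 10.8% lower. The treated libraries did not overlap the untreated ones for 8 members after 8 h, beside 57.8% of all genes, and for 6 after 24 h, beside 57.2%, and the times did not overlap for 7, beside 62%. The members had a median log2 fold change of -0.05 after 8 h and 0.05 after 24 h, beside 0.00 over all genes each time. In bulk libraries less RNA of a gene per cell and fewer cells that express it cannot be told apart.

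Among the receptors, SQSTM1 was downregulated at both times. Its CPM were 1219, 1128 and 1120 in untreated libraries, 772, 760 and 766 after 8 h, and 725, 776 and 713 after 24 h. Every TEPA library lay below every untreated library, and the libraries of 8 h and 24 h overlapped. The log2 fold change was -0.59 after 8 h (standard error 0.04, edgeR adjusted p = 3.0e-08) and -0.65 after 24 h (standard error 0.04, adjusted p = 5.5e-09), which means that its level fell by 33.7% and 36.2%. No difference between the times was called, at -0.05 (95% interval -0.14 to 0.04, adjusted p = 0.29). SQSTM1 alone made up 70.4 ± 0.604% of the counts of the 10 members in untreated cells, 62.6 ± 0.434% after 8 h and 59.5 ± 1% after 24 h (SD, n = 3).

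GABARAPL1 encodes an ATG8 protein of the GABARAP branch, and it had the widest swing of the members. Its CPM were 16.3, 11.6 and 13.8 in untreated libraries, 9.4, 9.62 and 9.71 after 8 h, and 29.1, 28.4 and 29.5 after 24 h. All 3 groups were separate, although the untreated libraries were spread more widely than the treated ones, at an SD of 2.37 CPM against 0.162 and 0.516 CPM. The log2 fold change was -0.53 after 8 h (standard error 0.10, edgeR adjusted p = 2.8e-04) and 1.06 after 24 h (standard error 0.09, adjusted p = 7.7e-08), which is 2.09-fold above untreated cells. From 8 h to 24 h GABARAPL1 rose 3.03-fold (log2 fold change 1.60, adjusted p = 1.8e-09). With each library left out in turn, its log2 fold change stayed between -0.66 and -0.41 after 8 h and between 0.94 and 1.19 after 24 h.

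MAP1LC3B, which encodes LC3B, the ATG8 protein most used as a marker of autophagosomes, moved in the same order by less. Its CPM were 112, 107 and 110 in untreated libraries, 93.4, 93.1 and 94.9 after 8 h, and 124, 121 and 124 after 24 h, again without overlap between any 2 groups. The log2 fold change was -0.22 after 8 h (standard error 0.04, edgeR adjusted p = 9.2e-05), 0.17 after 24 h (adjusted p = 9.1e-04) and 0.39 between 8 h and 24 h (adjusted p = 2.1e-07). MAP1LC3B2 is a near-identical copy, and reads of the 2 genes may not be told apart. With the counts of both genes summed, a choice made after the data were seen, the values were -0.22, 0.17 and 0.39. MAP1LC3B2 had 118 to 232 counts per library against 3486 to 6307 for MAP1LC3B, so the sum could hardly move the values. Reads that fit both copies, if left out of the counts, are not recovered by the sum.

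WIPI1, a reader of phosphatidylinositol 3-phosphate on the forming autophagosome, was downregulated after 8 h, and no difference from untreated cells was called after 24 h. Its CPM were 50.2, 39.6 and 43.8 in untreated libraries, 27.3, 28.2 and 28.8 after 8 h, and 39.8, 42.5 and 41.8 after 24 h. The libraries of 8 h lay apart from both other groups, whereas those of 24 h fell inside the untreated range. The log2 fold change was -0.67 after 8 h (standard error 0.07, edgeR adjusted p = 1.4e-06) and 0.56 from 8 h to 24 h (adjusted p = 5.7e-06). Against untreated cells it was -0.11 after 24 h (95% interval -0.25 to 0.04, adjusted p = 0.2), and without untreated replicate 2 it was called lower there, at -0.19 (adjusted p = 0.017).

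**Figure D2:**
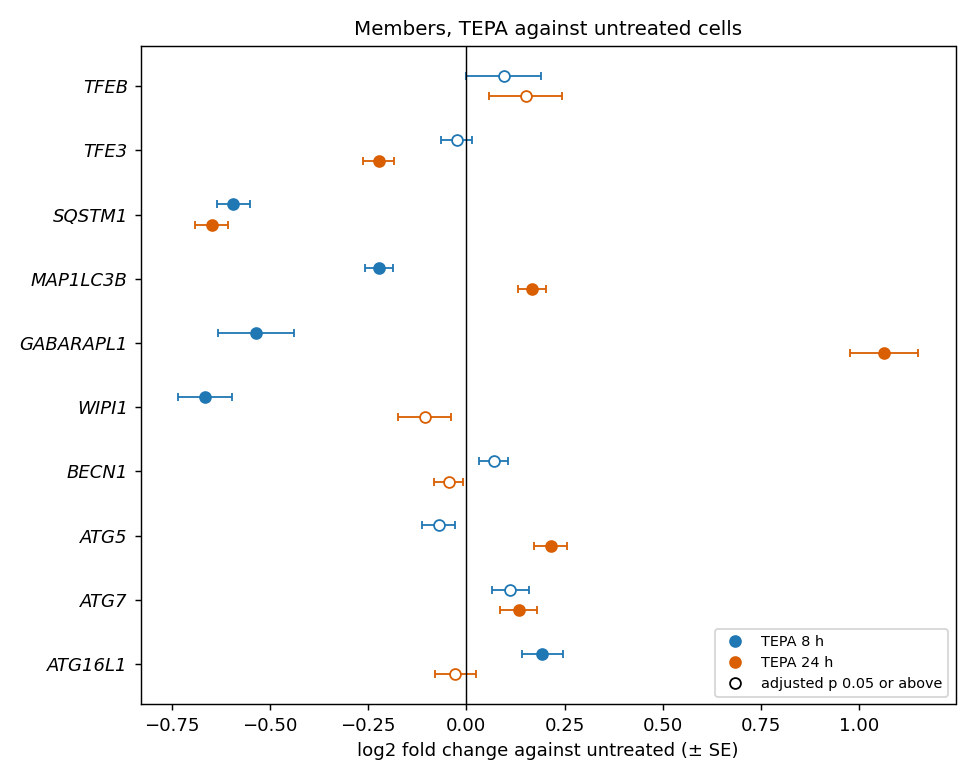
Log2 fold changes of the 10 members against untreated cells after 8 h and 24 h of TEPA, with standard errors, from edgeR's quasi-likelihood fit of all 9 libraries, filled where the adjusted p was under 0.05. SQSTM1 lies near -0.6 at both times, and GABARAPL1 and MAP1LC3B both lie below 0 after 8 h and above 0 after 24 h. WIPI1 lies at -0.67 after 8 h and -0.11 after 24 h.

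Of the transcription factors, TFE3 was called lower after 24 h and TFEB was not called at either time, and the difference between the genes was not tested. TFE3 was at 105, 105 and 104 CPM in untreated libraries, 101, 104 and 103 CPM after 8 h, and 90.7, 93.0 and 84.7 CPM after 24 h. The 24 h libraries were all below the others, while those of 8 h overlapped with untreated libraries. TFE3 had a log2 fold change of -0.02 after 8 h (95% interval -0.11 to 0.06, edgeR adjusted p = 0.64), fell by 0.22 after 24 h (standard error 0.04, adjusted p = 2.2e-04) and fell by 0.20 from 8 h to 24 h (adjusted p = 5.9e-04). TFEB was at 9.25, 7.92 and 6.97 CPM in untreated libraries, 8.47, 8.39 and 8.90 CPM after 8 h, and 8.71, 8.87 and 9.23 CPM after 24 h. All 3 of its groups overlapped, and the untreated group spanned the treated ones. The log2 fold change of TFEB was 0.09 after 8 h (95% interval -0.11 to 0.30, adjusted p = 0.43) and 0.15 after 24 h (95% interval -0.05 to 0.35, adjusted p = 0.19). The call depended on 1 library: without untreated replicate 1, TFEB was called higher after 24 h, at 0.26 (adjusted p = 0.018). TFE3 made up 89.7 ± 0.603% and TFEB 4.32 ± 0.557% of the 4 MiT/TFE factors per kb in untreated cells, MITF held 6.02 ± 0.0635%, and TFEC had at most 2 counts in any library (SD, n = 3).

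Among the genes of membrane nucleation and ATG8 conjugation, changes were small. ATG5, which is joined to ATG12 in the conjugating complex, was at 47.3, 46.8 and 46.3 CPM in untreated libraries, 44.1, 45.9 and 43.8 CPM after 8 h, and 56.0, 53.5 and 53.4 CPM after 24 h. It was upregulated after 24 h (log2 fold change 0.21, standard error 0.04, edgeR adjusted p = 4.3e-04), and its value after 8 h was -0.07 (adjusted p = 0.18), although no 8 h library reached an untreated one. ATG16L1, the scaffold that places the conjugating complex on the membrane, was at 43.0, 45.7 and 44.7 CPM in untreated libraries, 51.4, 53.4 and 47.7 CPM after 8 h, and 44.8, 44.8 and 41.2 CPM after 24 h. It was the member called higher after 8 h (0.19, standard error 0.05, adjusted p = 0.0056), and it fell by 0.22 from 8 h to 24 h (adjusted p = 0.0018), where its level overlapped with that of untreated cells.

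ATG7, the E1-like enzyme that activates both ATG12 and the ATG8 proteins, was at 30.3, 31.3 and 30.4 CPM in untreated libraries, 33.0, 33.2 and 33.3 CPM after 8 h, and 34.8, 32.7 and 33.4 CPM after 24 h. Both treated groups were above the untreated one. The log2 fold change was 0.11 after 8 h (edgeR adjusted p = 0.058) and 0.13 after 24 h (adjusted p = 0.024), and the call after 24 h was lost without untreated replicate 3 (adjusted p = 0.081), without TEPA 24 h replicate 1 (adjusted p = 0.13) and with no filter on low counts (adjusted p = 0.094). BECN1, a core subunit of the kinase complex that starts the membrane, was at 81.7, 84.0 and 80.8 CPM in untreated libraries, 84.5, 86.9 and 87.3 CPM after 8 h, and 78.3, 79.1 and 81.6 CPM after 24 h. The 8 h libraries lay above both other groups, narrowly so for the untreated one. Against untreated cells no difference was called, at 0.07 after 8 h (95% interval -0.01 to 0.15) and -0.04 after 24 h (95% interval -0.12 to 0.03), with adjusted p-values of 0.14 and 0.34. From 8 h to 24 h BECN1 fell by 0.11 (adjusted p = 0.017), a call that was lost without either TEPA 8 h replicate 2 (adjusted p = 0.069), TEPA 8 h replicate 3 (adjusted p = 0.076) or TEPA 24 h replicate 1 (adjusted p = 0.08).

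The other ATG8 genes were examined beside MAP1LC3B and GABARAPL1. Of the 7 ATG8 genes, 6 were tested, since MAP1LC3C did not pass the filter. TEPA for 8 h left 5 of the 6 called lower and 0 called higher, and by 24 h all 6 had risen from their 8 h level. Over all genes tested, 24.5% were lower and 25.2% higher after 8 h, and 26% rose from 8 h to 24 h. MAP1LC3A had log2 fold changes of -0.63 after 8 h and 0.40 after 24 h, and was called at both times. GABARAP, at -0.32, and GABARAPL2, at -0.44, were called lower after 8 h, and their values after 24 h were 0.11 and 0.13 (edgeR adjusted p = 0.14 and 0.063). MAP1LC3B2 had values of -0.26 and 0.27 that were not called (adjusted p = 0.14 and 0.10). A gene that was lower after 8 h and then higher after 24 h than after 8 h has both calls from the same 8 h libraries, and 5 of the 6 genes had them, beside 12.2% of all genes tested and 3 of the 10 members. GABARAPL1, MAP1LC3B and MAP1LC3A were also higher after 24 h than in untreated cells, beside 3.45% of all genes for that pattern. Summed per kb, the family was at 69.3 ± 5.11 CPM per kb in untreated cells, 54.0 ± 0.193 after 8 h and 82.1 ± 1.27 after 24 h (SD, n = 3), without overlap between groups. The share of GABARAPL1 in that sum was 4.94 ± 0.506% in untreated cells, 4.38 ± 0.074% after 8 h and 8.72 ± 0.284% after 24 h.

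Cargo receptors other than SQSTM1 were mostly lower after 8 h too. Of 16 tested, 11 were lower and 1 higher after 8 h, and 5 were higher and 4 lower after 24 h, with median log2 fold changes of -0.21 and 0.07. Over all genes tested, 24.5% were lower and 25.2% higher after 8 h, and 25.7% were higher and 26.8% lower after 24 h. BNIP3L, a mitophagy receptor, was the lowest after 8 h, at -1.04 (edgeR adjusted p = 1.5e-06), and stood at 0.01 after 24 h (adjusted p = 0.95). Its untreated libraries were spread, at 43.6, 30.1 and 35.2 CPM, and every 8 h library lay below them. NBR1, which like SQSTM1 binds ubiquitinated cargo and ATG8 proteins, went from -0.19 after 8 h to 0.59 after 24 h (adjusted p = 0.0028 and 3.4e-08). WDFY3, an adaptor for aggregated protein, was the receptor called higher after 8 h, at 0.15, although its 8 h and untreated libraries overlapped. RETREG1, a receptor for the endoplasmic reticulum, was the lowest after 24 h, at -0.98 (adjusted p = 2.0e-05). From 8 h to 24 h, 10 of the 16 rose and RETREG1 fell, beside 26% of all genes that rose and 28.8% that fell. SQSTM1 was lower at both times along with NCOA4, BNIP3 and RETREG1, as were 12.6% of all genes tested. Its share of the summed CPM per kb of all 17 receptors went from 29.6 ± 0.578% in untreated cells to 25.5 ± 0.356% after 8 h and 20.6 ± 0.461% after 24 h, while that of NBR1 went from 4.33 ± 0.0759% to 4.94 ± 0.061% and 7.12 ± 0.118% (SD, n = 3).

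**Figure D3:**
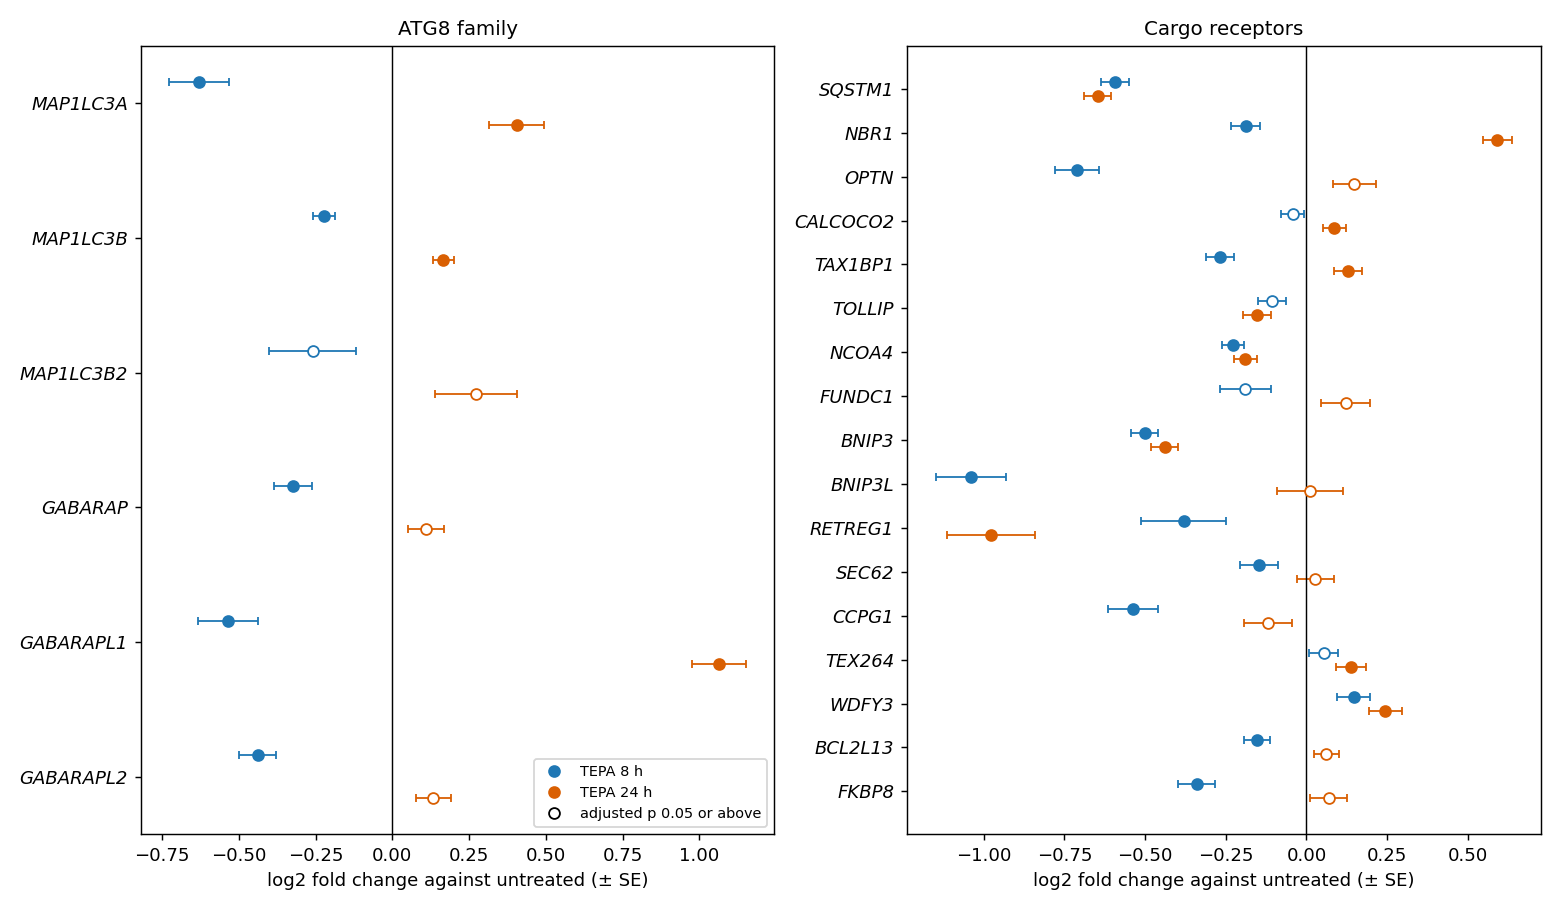
Log2 fold changes against untreated cells after 8 h and 24 h of TEPA, with standard errors, for the 6 tested ATG8 genes and the 17 cargo receptors, filled where the adjusted p was under 0.05. All ATG8 genes lie below 0 after 8 h and above 0 after 24 h, with MAP1LC3B2 not called at either time, whereas SQSTM1 stays near -0.6.

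The core list holds 60 autophagy genes besides the members, and it includes the other ATG8 genes and cargo receptors just described. Of its 59 tested genes, 9 were higher and 29 lower after 8 h, beside 25.2% and 24.5% of all genes. Among the 29 lower were 11 cargo receptors and 3 ATG8 genes. After 24 h, 22 were higher and 12 lower, beside 25.7% and 26.8% of all genes. The median log2 fold changes were -0.15 and 0.08. The remaining steps of autophagy did not share 1 direction. For the initiation complex, 3 of 5 genes were lower after 8 h, with ATG13 lowest at -0.31, and after 24 h ATG13 was higher, at 0.21, and ATG101 lower, at -0.39. For the kinase complex around BECN1, 4 of 7 were lower after 8 h and AMBRA1 was the lowest at both times (-0.41 and -0.42), whereas RUBCN, an inhibitor of the complex, was the highest at both (0.47 and 0.20). Of the 9 genes of membrane supply and lipid reading, 3 were lower after 8 h, with TMEM41B at -0.49, and 3 were higher after 24 h, with WDR45 at 0.42, and 1 lower, ATG2A at -0.13. The 8 further conjugation enzymes included 4 that were higher and 1 that was lower after 8 h, and 6 and 1 after 24 h, with ATG16L2 highest (1.09 and 0.50) and ATG10 lowest (-0.48 and -0.37). Of 10 fusion genes, 3 were higher and 4 lower after 8 h, with TECPR1 at 0.35 and VAMP8 at -0.34, and 3 were higher and 3 lower after 24 h, with TECPR1 at 0.46 and RAB7A at -0.39.

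From 8 h to 24 h, 29 of the 59 core genes rose and 8 fell, beside 26% and 28.8% of all genes. Their median was 0.13 on the log2 scale. Among the initiation genes 2 rose, ATG13 the most (0.52), and none fell. In the kinase complex PIK3C3 rose the most (0.35), and RUBCN was the gene that fell (-0.27). Among the genes of membrane supply ZFYVE1, which marks sites where autophagosomes form, rose the most (0.51), and ATG9A was the gene that fell (-0.14). Of the conjugation enzymes 2 rose, ATG4C the most (0.29), and 2 fell, ATG16L2 the most (-0.59). Of the fusion genes 4 rose, VPS39 the most (0.35), and 3 fell, EPG5 the most (-0.28). BNIP3L led the receptors (1.05) and MAP1LC3A the further ATG8 genes (1.03), and RETREG1 had the lowest value of the core genes (-0.60).

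Genes known as targets or regulators of TFEB and TFE3 were then examined. Of 8 tested MiT/TFE factors and nutrient-sensing targets, 2 were higher and 2 lower after 8 h, and none was higher and 6 were lower after 24 h. Over all genes tested, 25.2% were higher and 24.5% lower after 8 h, and 25.7% and 26.8% after 24 h. The counts of the MiT/TFE list after 8 h were near these shares. The median of this list went from 0.04 to -0.32 on the log2 scale. FLCN, part of a complex that keeps TFEB and TFE3 inactive when amino acids are plentiful and itself a target of these factors, was higher after 8 h (0.21, edgeR adjusted p = 0.0025) and the lowest called gene after 24 h (-0.50, adjusted p = 6.3e-07). Its partner FNIP1 went from -0.02 (adjusted p = 0.79) to -0.48 (adjusted p = 2.4e-05). MITF, the third expressed member of the family, was the highest called gene after 8 h, at 0.22, and was lower after 24 h, at -0.17, and PPARGC1A was the lowest after 8 h, at -0.78. Of 31 tested CLEAR lysosomal targets, 3 were higher and 17 lower after 8 h, and 7 were higher and 14 lower after 24 h, with medians of -0.12 and -0.05. The higher calls of CLEAR targets after 24 h were near the share of all genes. CTSD, a lysosomal protease, was the lowest after 8 h (-0.56), GLA the highest (0.25), and after 24 h the range of called genes ran from SGSH (-0.49) to ATP6V1A (0.49). From 8 h to 24 h, 1 gene of the MiT/TFE list rose, PPARGC1A (0.70), and 5 fell, GPNMB the most (-0.84). GPNMB had few counts, at 32 to 34 per library after 8 h and 18 to 23 after 24 h. Between the same times 14 CLEAR targets rose, SCARB2 the most (0.54), and 5 fell, SGSH the most (-0.46). Over all genes tested, 26% rose and 28.8% fell between the times.

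**Figure D4:**
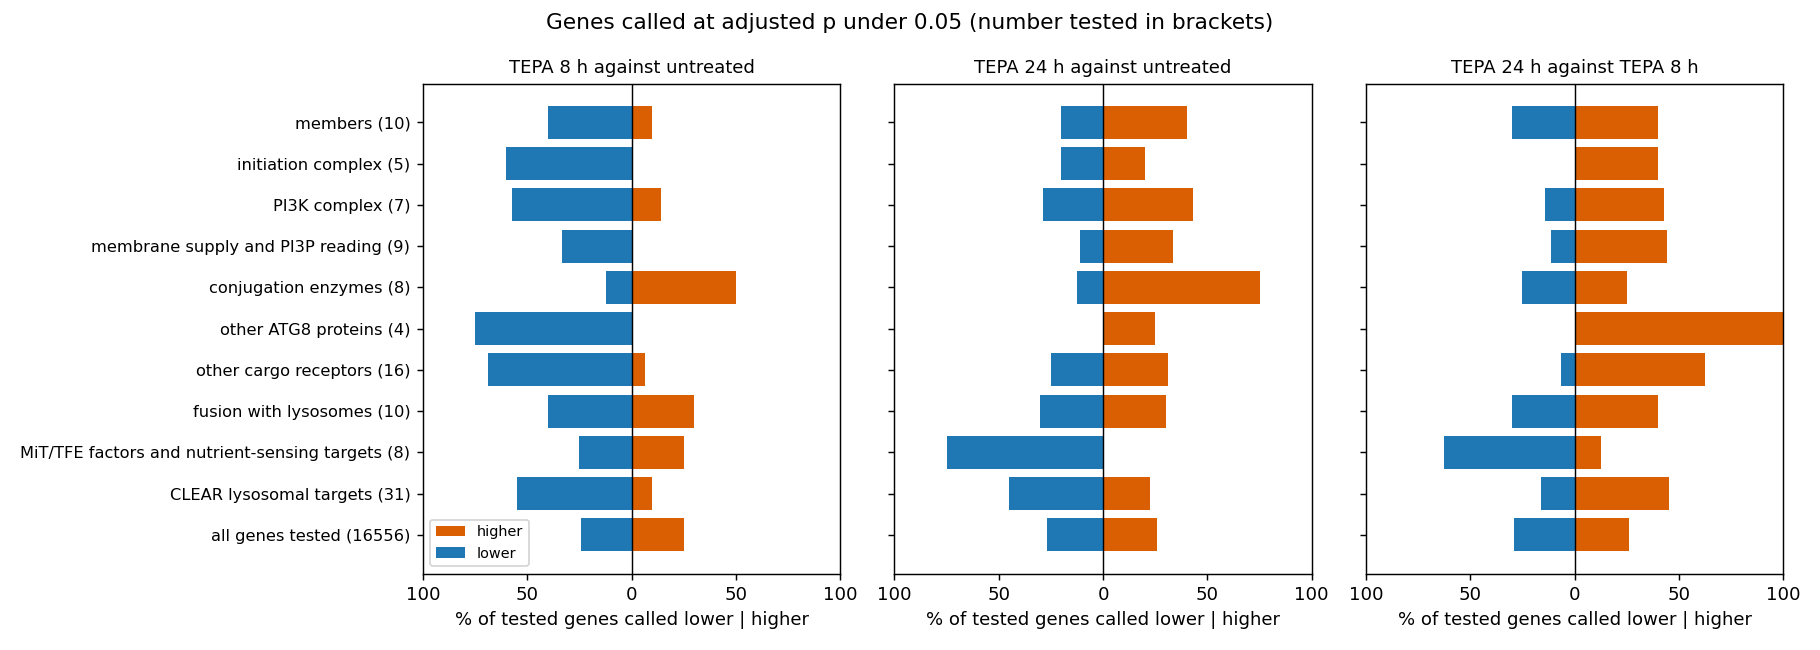
Share of tested genes called lower (left of 0) and higher (right of 0) at an adjusted p under 0.05 in each comparison, by list, with all 16556 genes at the bottom and the number tested in brackets. At 8 h the receptors and other ATG8 genes extend mainly to the left, and after 24 h the MiT/TFE list holds lower calls alone.

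The genes whose pattern was most like that of a member were found by the root mean square difference of log2 CPM, centred on the untreated mean, over the 9 libraries and 11919 genes with a mean of at least 100 counts. For GABARAPL1 these were BMF, TP53INP1 and SCG2, at differences of 0.09, 0.12 and 0.13, with log2 fold changes from -0.51 to -0.33 after 8 h and from 1.04 to 1.19 after 24 h. For SQSTM1 they were EMP1, TSKU and ABHD4, at 0.04 to 0.05. For WIPI1 they were TNNT1, IFI35 and KLHDC2, at 0.04 to 0.05, and for MAP1LC3B they were CHMP5, C1orf43 and ROBO1, at 0.03 each. TFE3 was nearest to ABR, SH3GL1 and NACC1, at 0.02 to 0.03, and TFEB to DDX19B, ZNF543 and BORCS6, at 0.06 each. These differences are descriptions.

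Total counts ran from 34633755 to 49342659 per library, and the members had between 275 and 51553 counts in each. The line showed its defining markers, with VIM at 3674 CPM and CD44 at 859 CPM in untreated cells, ESR1 at no more than 9 counts and PGR at 0 in every library. Of 8 markers of other cell types, CD3E was at 0 in every library, PTPRC, CDH5 and ADIPOQ had at most 5 counts, and the summed CPM of the list was 45.5 to 59.9 in untreated libraries, 58.2 to 63.1 after 8 h and 118 to 126 after 24 h. PDGFRB and COL1A1, genes of mesenchymal cells, made up most of it, with means of 34.2, 27.1 and 94.5 CPM for PDGFRB and 13.7, 32.4 and 18 CPM for COL1A1 in untreated, 8 h and 24 h libraries. After 8 h COL1A1 was called higher (1.25 on the log2 scale) and PDGFRB (-0.33) and PECAM1 (-1.76) lower, and after 24 h all 3 were called higher. CDH1, an epithelial adhesion gene, had 10 to 33 counts in untreated and 8 h libraries and 119 to 144 after 24 h. The part of these shifts in the changes of the members was not tested. The mitochondrially encoded share of counts was 1.79% to 2.91% in untreated libraries, 3.61% to 4.02% after 8 h and 1.89% to 2.02% after 24 h, and with those genes left out of the counts every call of a member was as given above.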

How the data were processed

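MDA-MB-231 RNA was sequenced by the study in 9 libraries of 3 groups, with replicate numbers taken from the sample titles. Per its methods, paired reads of stranded mRNA libraries went through FastQC and HISAT2 (hg38), and the authors assigned them to exons by gene name in featureCounts. Strand was used, so genes that overlap on the opposite strand were counted apart. The table the authors deposited holds raw counts that no step had normalized.

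The filterByExpr filter, at a minimum count of 10, kept 16556 of 59453 gene names, and TMM factors ran from 0.978 to 1.04. One quasi-likelihood model in edgeR 4.0.16 (R 4.3.3) held all 9 libraries, and Benjamini-Hochberg adjustment took in every gene kept. Each standard error was obtained as the absolute log2 fold change over the square root of F. Levels are CPM on TMM-scaled totals, and levels per kb divide them by merged exons in GENCODE v44. The biological coefficient of variation came to 0.0481. An exact permutation of 3 against 3 libraries cannot go below a p of 0.1, so no permutation test of single genes was run.

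The members and gene lists were chosen with earlier results of these data known. Genes named besides the members are the highest and lowest called gene of each list per comparison, all ATG8 genes, the MiT/TFE factors and the 3 genes nearest in pattern, and FNIP1, the receptors lower at both times, NBR1 after 8 h, BNIP3L after 24 h and the genes in the other observations outside that rule were chosen after their values were seen. Lists of core autophagy genes, CLEAR lysosomal targets, FOXO factors, NRF2 targets, and ATF4 and its targets were described by counts and medians, with no set test. Alternatives were DESeq2 1.42.0, upper-quartile and RLE factors, other filters, a fold limit, only the 2 groups compared, a replicate block, mitochondrial genes left out, and each library left out in turn. Simulated counts of 16146 genes served as a check of the procedure. In a simulated comparison of 8 h with untreated cells, 192 of 200 changed genes (96%) were recovered and 11 unchanged genes were called. In the measured comparison 49.6% of all 16556 genes were called, and the simulated recovery is given here over all sizes of change together. The simulated rates therefore do not give the power or error rate of the member calls.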

Additional observations from a re-analysis of the deposited data

Results flagged for a closer look

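For 7 members the change after 24 h differed from the change after 8 h, as tested by the difference between the 2 treated groups in edgeR's quasi-likelihood fit. The log2 difference, 24 h minus 8 h, was 1.60 for GABARAPL1, 0.56 for WIPI1, 0.39 for MAP1LC3B and 0.28 for ATG5, with 24 h higher in all 3 libraries of each. It was -0.22 for ATG16L1, -0.20 for TFE3 and -0.11 for BECN1, with 24 h lower in all 3 libraries of each. At the same threshold 54.8% of all genes tested differed between the times.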

How the results depend on the processing

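Over the 30 member values (10 members in 3 comparisons), 498 of 513 alternative fits kept the direction and the side of the threshold, 8 lost a call, 4 gained one and 3 changed sign. The 3 sign changes were of values that were not called: TFEB after 8 h without untreated replicate 3 (range over libraries left out -0.0035 to 0.20), ATG7 between 8 h and 24 h without TEPA 24 h replicate 1 (-0.0047 to 0.042) and ATG16L1 after 24 h without TEPA 24 h replicate 3 (-0.052 to 0.0097). At 8 h, 2 members were called higher with upper-quartile factors and 2 with a minimum of 10 counts in every library, ATG7 being the gene added. BECN1 between the times was also not called with no filter (adjusted p = 0.080) or with only the 2 groups compared (adjusted p = 0.050, above the threshold before rounding), both from edgeR. With a log2 fold limit of 0.5 added, the members called higher and lower were 0 and 3 after 8 h, 1 and 1 after 24 h, and 2 and 0 between the times. The core autophagy genes numbered 1 and 5, 1 and 1, and 8 and 2, and the CLEAR lysosomal targets 0 and 1, 0 and 0, and 1 and 0. The shares of all genes past this limit are those given with the members above. Without single libraries, 1 to 3 CLEAR targets were called higher after 8 h, with 1 without untreated replicate 2, without TEPA 8 h replicate 2 and without TEPA 8 h replicate 3. The cause was not tested.

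Replicate numbers did not pair the libraries: deviations from the group means of same-numbered libraries correlated between -0.0801 and 0.0383 over 9 pairs, and 1 of 9 libraries correlated best with its own number. With the replicate number as a block, 1 member was higher and 4 lower after 8 h, 4 higher and 2 lower after 24 h, and 4 higher and 3 lower between the times, and over all genes 7779 were called after 8 h in place of 8216. Scalings moved the median of all genes by less than the 0.1 at which directions would need restating. TFEB and GABARAPL1 have the fewest counts among the members, and lists with genes under the filter (MAP1LC3C, TFEC and ATP6V0D2) give no value for them.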

Other observations

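Genes of factors known to act on autophagy transcripts were also measured. FOXO4, at 4.06 CPM in untreated cells, had a log2 fold change of -0.22 after 8 h (edgeR adjusted p = 0.24) and rose by 1.24 on the log2 scale after 24 h (adjusted p = 1.0e-06), while FOXO3 was lower after 24 h, at -0.31, and FOXO1 had values of 0.11 and 0.20 that were not called. Of 3 FOXO factors, none was called after 8 h, beside 49.6% of all genes. After 24 h, 1 was higher and 1 lower, beside 25.7% and 26.8% of all genes.

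Of 7 NRF2 targets, 2 were higher and 2 lower after 8 h, and none was higher and 5 were lower after 24 h, with median log2 fold changes of -0.07 and -0.25. Over all genes tested, 25.2% were higher and 24.5% lower after 8 h, and 25.7% and 26.8% after 24 h. The counts of NRF2 targets after 8 h were near these shares. SRXN1 was the highest after 8 h, at 0.49, GCLC the lowest, at -0.26, and SLC7A11 the lowest after 24 h, at -1.09. Of 7 genes of the ATF4 list, 2 were higher and 3 lower after 8 h, and 2 were higher and 4 lower after 24 h. The higher calls of this list were near the share of all genes at both times. ASNS was the highest at both times, at 0.59 and 0.88, while DDIT4 was the lowest after 8 h, at -1.12, and DDIT3 after 24 h, at -1.20. These lists share with the members the 9 libraries and the untreated group, and their part in the members' changes was not tested.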
